A study of Homo sapiens with 6 samples.

Results

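The genes described here are the immediate early transcription factors, the Krüppel-like factors (KLFs) and the feedback inhibitors of mitogen-activated protein kinase (MAPK) signalling in the human prostate cancer cell line C4-2, a castration-resistant derivative of LNCaP. Members were protein-coding genes whose symbol in the platform's probe table begins with DUSP, KLF or SPRED, or is a member of the FOS, JUN, EGR, IER, MAF, SPRY, ZFP36 or BTG families. The brightest probeset stood for each gene. This gave 61 members of 14812 genes tested. The same pattern matches 77 protein-coding genes of RefSeq. The other 16, among them EGR2, MAFK, SPRY1 and all SPRED, ZFP36 and BTG genes of the pattern, had no named probeset and are not analysed here.

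RNA from 6 samples was hybridised to Affymetrix Human Gene 2.0 ST arrays, 2 a group. The NU7441 group was given 1 µM NU7441, an inhibitor of the kinase DNA-PKcs, for 24 h. The knockdown group was depleted of DNA-PKcs with a pool of siRNAs against its gene PRKDC, with transfection for 96 h. The control group was treated with the vehicle DMSO. All cells were of 1 line and grown in medium with hormones. The protocol also names a control siRNA pool, but the labels do not say which of the NU7441 and control cultures received it, so transfection and depletion cannot be told apart in knockdown against control. PRKDC had no named probeset, so the labels alone define the knockdown. The labels call the 2 arrays of a group biological replicates without saying whether they came from separate cultures on separate days. The p-values of the main model rest on the spread within the 3 groups, pooled and moderated across genes, and cover no other variation.

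Immediate early genes are switched on within minutes of a growth factor or stress signal, without new protein synthesis, through kinases of the ERK, JNK and p38 cascades that act on factors such as SRF and CREB. Several encode transcription factors: FOS and JUN proteins pair to form AP-1, and EGR proteins are zinc finger factors. KLFs are zinc finger factors that bind GC-rich and CACCC sequences. Other members can close the loop. Many dual specificity phosphatases (DUSPs) remove phosphate from active MAPKs, and Sprouty proteins dampen receptor signalling to RAS and ERK. The members were chosen by name, so not all need be immediate early genes.

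Values are linear intensities as deposited, whose lowest value on every array was 16. The array median over all probesets was 24.6 and 26.0 for NU7441, 28.4 and 27.6 for knockdown and 31.5 and 31.6 for control. Among the members, 9 and 3 lay below 20 on the 2 arrays of NU7441, 2 and 3 after knockdown and 0 in either control. The 2 arrays of a group differed over 1.5-fold for 15 members under NU7441, 5 under knockdown and 1 in controls, so the NU7441 arrays were the least alike. Over all genes tested these shares were 23.2%, 7.42% and 0.479%. Luminal prostate markers were well above the floor on all arrays, with KLK3, which encodes prostate-specific antigen, at 1213 and 969 in NU7441 cells, 709.5 and 711 in knockdown cells and 793 and 726 in controls. All measured basal, endothelial, leukocyte and neuroendocrine markers stayed under 50 in controls, and 1 stromal marker, VIM, reached 66.5. Under NU7441 KLK3 and KLK4 rose and EPCAM fell among 8 luminal markers, LUM fell among 3 stromal and KDR among 4 endothelial ones. In NU7441 cells LUM was at 16 and 18.0, KDR at 16 and 21.3 and the neuroendocrine marker CHGB at 16 and 24.0, near the floor. CHGB and NCAM1 fell among 5 neuroendocrine markers, whose summed intensity was 110.1 and 124 in NU7441 cells, 156 and 125 in knockdown cells and 180.3 and 163 in controls. Their part in the results below was not tested.

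For 4 early-response members that changed in opposite directions, the promoter is shown from RefSeq (GRCh38.p14, 250 bases before to 50 after the gene's start, on the gene's own strand). DUSP1 and JUNB rose under NU7441 and FOSB and EGR4 fell, and all 4 hold the letters TGACG, the core of the element that CREB binds, on one strand or the other. Capitals mark each TGACG or its reverse complement. DUSP1 lies at chr5:172771146-172771445 (minus strand), JUNB at chr19:12791236-12791535 (plus), FOSB at chr19:45467746-45468045 (plus) and EGR4 at chr2:73293499-73293798 (minus).
DUSP1: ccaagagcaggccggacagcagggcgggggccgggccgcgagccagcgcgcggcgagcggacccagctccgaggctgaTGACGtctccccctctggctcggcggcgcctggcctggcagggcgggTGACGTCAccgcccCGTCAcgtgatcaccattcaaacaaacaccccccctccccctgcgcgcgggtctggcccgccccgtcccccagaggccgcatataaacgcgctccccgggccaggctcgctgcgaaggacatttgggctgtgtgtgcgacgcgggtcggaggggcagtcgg
JUNB: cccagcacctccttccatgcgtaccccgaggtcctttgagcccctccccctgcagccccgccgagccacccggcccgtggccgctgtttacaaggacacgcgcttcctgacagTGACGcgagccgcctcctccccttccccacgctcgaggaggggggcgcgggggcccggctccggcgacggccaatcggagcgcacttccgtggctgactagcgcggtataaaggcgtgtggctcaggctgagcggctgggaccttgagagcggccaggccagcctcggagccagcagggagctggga
FOSB: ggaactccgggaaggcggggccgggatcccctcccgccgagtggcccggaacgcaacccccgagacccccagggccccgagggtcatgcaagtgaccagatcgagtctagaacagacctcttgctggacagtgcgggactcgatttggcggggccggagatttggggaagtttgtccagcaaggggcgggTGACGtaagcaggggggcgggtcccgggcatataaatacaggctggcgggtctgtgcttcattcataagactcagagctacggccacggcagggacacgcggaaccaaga
EGR4: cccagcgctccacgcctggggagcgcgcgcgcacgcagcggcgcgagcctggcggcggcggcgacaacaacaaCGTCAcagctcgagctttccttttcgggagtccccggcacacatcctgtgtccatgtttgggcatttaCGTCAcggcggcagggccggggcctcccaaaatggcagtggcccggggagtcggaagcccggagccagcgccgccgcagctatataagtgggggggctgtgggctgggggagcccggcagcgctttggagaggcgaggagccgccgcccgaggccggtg

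This core begins 60 bases before the start in FOSB and 137 before it in JUNB. In EGR4 its reverse complement begins 177 and 109 bases before the start. DUSP1 holds the whole palindrome TGACGTCA, beginning 125 bases before the start, and 2 further cores. The whole palindrome, which contains TGACG on both strands, was found in 5 of the 50 members that have a promoter in the table (10%) and in 2.59% of 15843 protein-coding promoters of the same length. The core alone, a motif searched after the others had been seen, was found in 27 of 50 (54.0%) against 29.5% of all. It stood in 5 of the 8 promoters of members higher under NU7441, in 3 of the 5 of members lower and in 19 of the 37 of members that did not pass, so it was present among members of both directions. GCGNGGGCG, the EGR site, was in 15 of the 50 (30%) against 12.6%, GGGCGG, the GC box, in 35 (70.0%) against 58.5%, TGANTCA, the AP-1 site, in 1 (2.0%) against 5.75%, and CCGGAAGT, an ETS site, in 0 against 6.19%. A CArG box, the site of SRF, was in 1 member promoter, that of EGR1, which has 2 of them, against 1.21% of all. Both strands were searched for every motif, and a match is only a run of letters in this window.

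NU7441 against control asked how the family responds to inhibition of the kinase. In NU7441-treated cells 8 members rose and 8 fell, and no role of several genes passed the threshold as a whole. The members that rose were the AP-1 subunit gene JUNB, KLF13, the MAPK phosphatase genes DUSP1 and DUSP10, and the atypical phosphatase genes DUSP3, DUSP22, DUSP23 and DUSP28. Those that fell were FOSB, EGR4, the ERK phosphatase gene DUSP6, the atypical phosphatase genes DUSP12, DUSP15, DUSP19 and DUSP26, and IER3IP1. The 16 called are 26.2% of the members, against a background of 33.2% of all genes past the threshold (limma's moderated test, Benjamini-Hochberg adjusted p under 0.05 over all genes). By direction, 13.1% of the members were higher, against 10.8% of all genes, and 13.1% were lower, against 22.4%. The members' share of calls thus lay near or below the background. Both NU7441 arrays lay above both controls for 26.2% of the members against 22.7% of all genes, and below both for 36.1% against 47.3%. At an unadjusted p under 0.05 there were 37.7% of the members and 45.9% of all genes. The median log2 fold change was −0.12 over the members and −0.23 over all genes. It moved to 0.12 and 0.05 after quantile normalization, so each value below stands against a general shift of that size. The members' split of 8 higher and 8 lower became 10 and 4 after quantile normalization and 14 and 4 after median centring, which added DUSP14, DUSP16, DUSP18, JUN, JUND and SPRY2. The share of lower genes among all calls was 67.4% as deposited, 47.2% and 32.3% in the same order.

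**Figure D1:**
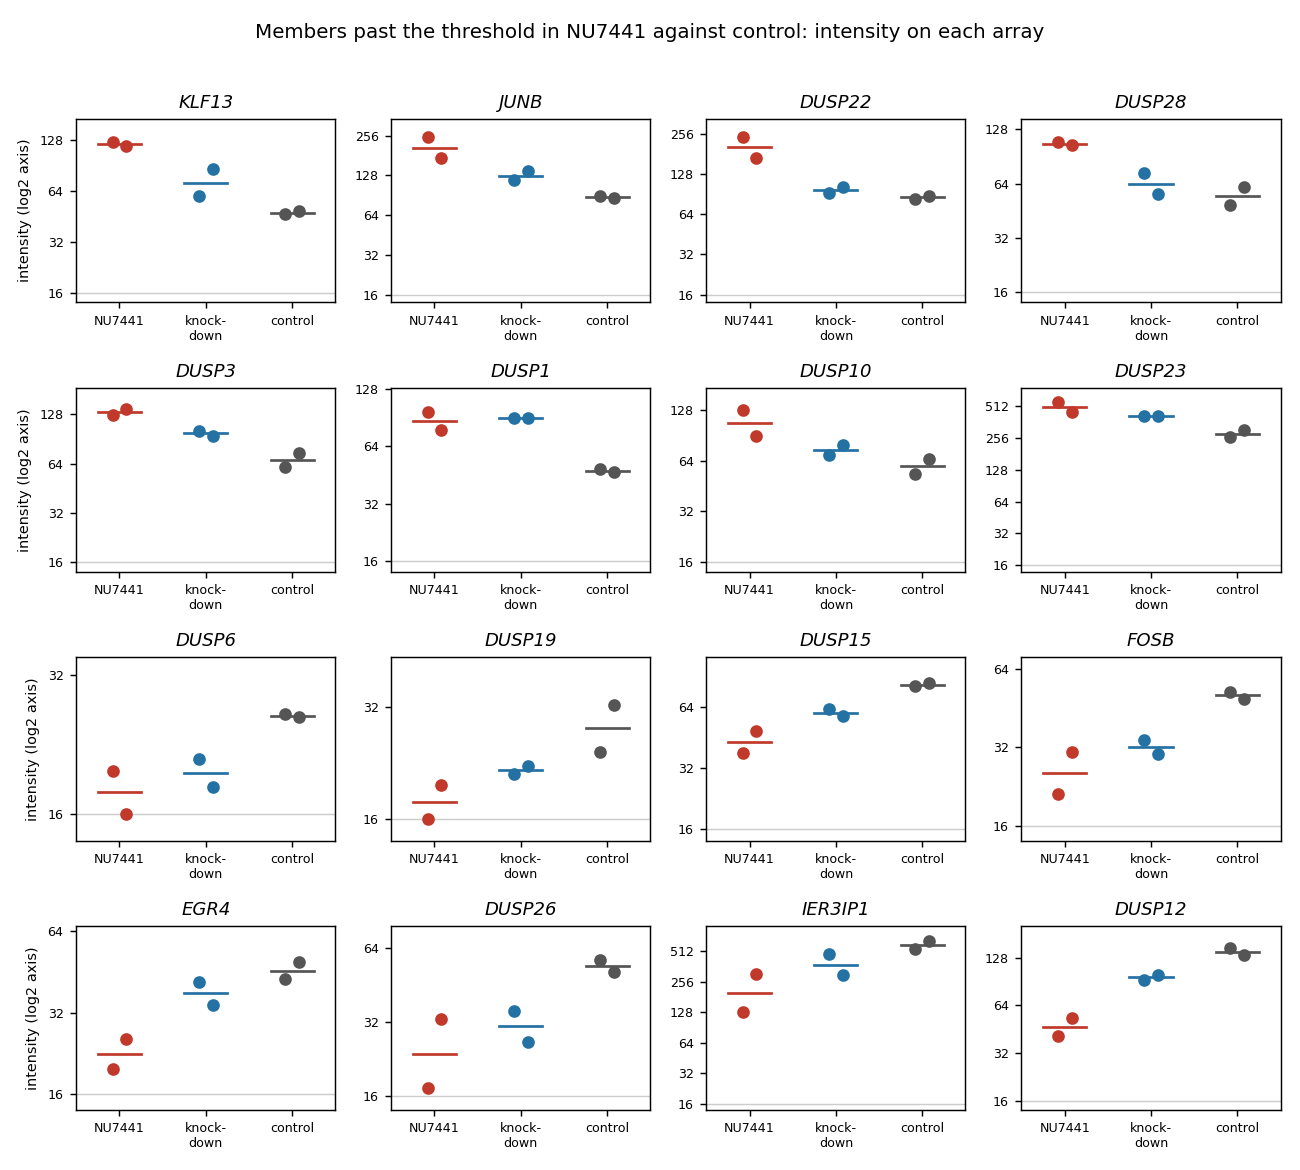
Intensity on each array (log2 axis) of the 16 members past the threshold in NU7441 against control, with NU7441, knockdown and control arrays from left to right. Points are arrays, horizontal bars are geometric means of 2 arrays and the grey line is the floor of 16. In all 16 panels both NU7441 arrays lie on one side of both control arrays, and for DUSP6 and DUSP19 one NU7441 array is at the floor.

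Among the 13 immediate early factors, JUNB rose and FOSB and EGR4 fell. JUNB, an AP-1 subunit that often opposes JUN, had intensities of 251 and 172 in NU7441 cells, 118 and 138 in knockdown cells and 89.3 and 86.5 in controls. Both NU7441 arrays lay above all others, and it was 2.36-fold higher than in controls (log2 fold change 1.24 ± 0.22, moderated SE, n = 2 per group, limma adjusted p = 0.00424). FOSB, a FOS family partner in AP-1, had 21.1 and 30.8 in NU7441 cells, 34.1 and 30.1 in knockdown cells and 52.4 and 49.3 in controls. It was 1.99-fold lower under NU7441 (−0.99 ± 0.26, limma adjusted p = 0.0178), and the knockdown arrays also lay below both control arrays. EGR4, a zinc finger factor of the EGR family, had 19.8 and 25.6 in NU7441 cells, 41.7 and 34.1 in knockdown cells and 42.6 and 49.2 in controls. It was 2.03-fold lower (−1.02 ± 0.25, limma adjusted p = 0.0139). FOSB and EGR4 came close to the floor under NU7441, and neither passed after quantile normalization (−0.68 and −0.69, limma adjusted p = 0.0558 and 0.0522).

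The other 10 immediate early factors did not pass, with log2 fold changes between −0.65 for IER5 and 0.41 for JUN. JUN, the founding AP-1 subunit, had 173 and 163 in NU7441 cells, 98.1 and 131 in knockdown cells and 125 and 127 in controls. Both NU7441 arrays stood above the other 4, but the difference from control missed the threshold (0.41 ± 0.20, limma adjusted p = 0.135). JUND, the AP-1 subunit gene that most cells transcribe steadily, had 1128 and 1119.8 in NU7441 cells, 1186 and 1160.2 in knockdown cells and 960.3 and 993 in controls. Its NU7441 and knockdown arrays lay above both controls by small amounts (0.20 ± 0.08 and 0.26 ± 0.08, limma adjusted p = 0.0658 and 0.11). IER2, an immediate early nuclear protein gene, overlapped between all groups, with 76.3 and 106 in NU7441 cells, 91.3 and 95.8 in knockdown cells and 72.0 and 100.3 in controls.

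FOS and EGR1 are the genes most often used to read an immediate early response. Arrays after 24 h of NU7441 or 96 h of transfection give levels at those times, not the response within minutes of a signal. FOS had 20.6 and 31.5 in NU7441 cells, 28.0 and 16.6 in knockdown cells and 30.1 and 31.1 in controls. EGR1 had 50.7 and 40.1 in NU7441 cells, 47.6 and 48.0 in knockdown cells and 38.3 and 45.1 in controls. On the brighter probeset of each gene the NU7441 and control arrays overlapped (log2 fold changes −0.27 ± 0.29 and 0.12 ± 0.25, limma adjusted p = 0.496 and 0.736). EGR3 had 25.5 and 24.2 in NU7441 cells, 25.9 and 24.8 in knockdown cells and 22.2 and 34.6 in controls. FOSL1 and FOSL2 likewise did not pass, at −0.39 ± 0.31 and −0.12 ± 0.23.

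FOS, FOSB, EGR1, DUSP5 and SPRY3 each had 2 named probesets and IER3 had 11. In the order of probeset numbers, genes of the same strand stand together. Of 10294 genes with 1 probeset, 99.1% had the strand of most of the 10 named probesets on either side. FOS and EGR1 are plus-strand genes, yet the brighter probeset of each stood among minus-strand genes, with 15 of 15 neighbours of known strand for FOS and 13 of 13 for EGR1. The brighter DUSP5 probeset stood among minus-strand and its dimmer one among plus-strand genes. Whether these probesets read antisense RNA was not tested. The dimmer FOS probeset, among plus-strand genes, was at 20.2 and 16 in NU7441 cells, 20.7 and 21.4 in knockdown cells and 25.2 and 24.8 in controls. On it both NU7441 arrays lay below both controls, at −0.47 on the log2 scale, which just missed the threshold (adjusted p = 0.0572 with limma fitted on all named probesets). The dimmer EGR1 probeset had 21.2 and 34.3 in NU7441 cells, 19.4 and 29.2 in knockdown cells and 21.4 and 22.7 in controls. FOSB's brighter probeset lay among plus-strand genes, its own strand, with 13 of 13 neighbours.

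IER3, an early response gene that modulates ERK signalling and survival, gave opposite answers on different probesets. The 5 probesets with the pattern of the one used ranged from 45.7 to 60.6 in NU7441 cells, 62.5 to 70.1 in knockdown cells and 35.1 to 49.1 in controls. They lay 0.28 to 0.34 higher under NU7441 on the log2 scale, with adjusted p of 0.302 to 0.421 when limma was fitted on all named probesets. The other 6 ranged from 18.1 to 29.3 in NU7441 cells, 25.4 to 37.5 in knockdown cells and 45.8 to 56.9 in controls. They fell by 1.12 to 1.27 under NU7441, with limma adjusted p of 0.00546 to 0.0159. Within each pattern several probesets had almost equal intensities on every array, so the 5 and 6 are not treated as independent measurements. Under knockdown the first 5 were 0.61 to 0.67 higher and the other 6 were −0.75 to −0.67 against control, with no probeset past the threshold (limma adjusted p from 0.154 to 0.229). IER3 had no promoter entry, so its own strand was not assigned here. The probeset used here stood beside a plus-strand gene, and another of the rising ones stood among 5 plus-strand genes. Of the falling probesets, the one with neighbours of known strand stood among 3 minus-strand genes. The direction of IER3 therefore depends on the probeset chosen, and no direction is given for the gene.

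**Figure D2:**
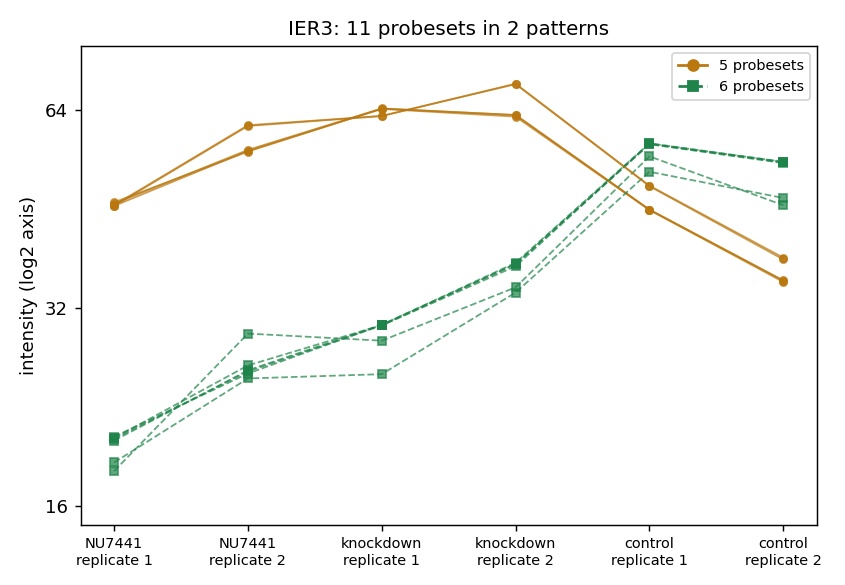
Intensity (log2 axis) of the 11 IER3 probesets on each array, with NU7441, knockdown and control arrays from left to right and each line a probeset. In controls all 11 lie between 35.1 and 56.9, and in NU7441 cells 5 lie at 45.7 or above and 6 at 29.3 or below.

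The 3 measured MAF genes, basic leucine zipper factors of which MAFF and MAFG are the small partners of NRF proteins, lay below control under both treatments, and none passed. Most genes did the same: 9630 of the 14812 tested lay below control under NU7441 and 8843 after knockdown. MAFF had 84.8 and 52.7 in NU7441 cells, 72.0 and 75.0 in knockdown cells and 114 and 105 in controls. All NU7441 and knockdown arrays were below both controls, at −0.71 ± 0.26 and −0.57 ± 0.26 (limma adjusted p = 0.06 and 0.261). MAF was at −0.47 ± 0.23 and −0.22 ± 0.23 and MAFG at −0.40 ± 0.19 and −0.38 ± 0.19, again NU7441 before knockdown. MAFG had 17.1 and 22.5 in NU7441 cells, 19.4 and 20.5 in knockdown cells and 24.1 and 27.9 in controls. Of 4 measured partners of small MAF proteins, NFE2L1 rose under NU7441 (0.71 ± 0.15, limma adjusted p = 0.00764) and NFE2L2, which encodes the oxidative stress factor NRF2, fell. NFE2L2 had 48.1 and 78.4 in NU7441 cells, 109.8 and 87.8 in knockdown cells and 153 and 149.9 in controls. Both treated groups lay below the controls, with NU7441 at −1.30 ± 0.26 (limma adjusted p = 0.00698) and knockdown at −0.62 ± 0.26 (limma adjusted p = 0.23). KEAP1 and NFE2L3 did not pass, at 0.48 and −0.56.

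Of the 17 KLF genes 1 rose under NU7441, KLF13, and none fell. KLF13, a KLF known for control of RANTES in T cells, had 125 and 118 in NU7441 cells, 59.4 and 85.5 in knockdown cells and 46.9 and 48.2 in controls. The 3 groups did not overlap, and it was 2.55-fold higher than control under NU7441 (1.35 ± 0.24, limma adjusted p = 0.00431), the highest fold change of any member. The other 16 ranged from −0.63 for KLF2 to 0.32 for KLF7. KLF2, a factor of quiescent endothelium and T cells, had 31.4 and 34.4 in NU7441 cells, 45.7 and 41.6 in knockdown cells and 50.1 and 51.5 in controls. Its groups did not overlap, but it missed the threshold (−0.63 ± 0.23, limma adjusted p = 0.0608), which it passed without a mean-variance trend. KLF9, a target of glucocorticoid and thyroid hormone receptors, had 86.8 and 69.1 in NU7441 cells, 90.1 and 90.6 in knockdown cells and 68.7 and 58.8 in controls. Its knockdown arrays stood above all the others (0.51 ± 0.22 against control, limma adjusted p = 0.252).

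KLF4, KLF5 and KLF6, which have roles in epithelial differentiation and growth, did not pass in any comparison. KLF4 had 31.3 and 34.9 in NU7441 cells, 28.5 and 34.7 in knockdown cells and 42.5 and 35.0 in controls. KLF5 had 31.1 and 57.8 in NU7441 cells, 55.9 and 56.3 in knockdown cells and 68.4 and 53.4 in controls. Only 1 NU7441 array of KLF5 stood apart from the other arrays. KLF10, a TGF-β-inducible repressor, was also split within its groups, with 37.4 and 81.8 in NU7441 cells, 51.8 and 78.1 in knockdown cells and 50.01 and 53.5 in controls. KLF16 had 135 and 137 in NU7441 cells, 168 and 153 in knockdown cells and 138 and 156 in controls, a difference of −0.11 ± 0.18 under NU7441. KLF12 had 25.6 and 24.9 in NU7441 cells, 21.7 and 20.04 in knockdown cells and 22.0 and 24.5 in controls. Like KLF1, KLF8 and KLF17 it stayed under 30 on all arrays, close to the floor.

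The 10 MAPK phosphatases, DUSPs with a kinase interaction motif, split by gene: DUSP1 and DUSP10 rose under NU7441 and DUSP6 fell. DUSP1, the inducible nuclear phosphatase of p38, JNK and ERK, had 96.8 and 78.2 in NU7441 cells, 91.0 and 90.0 in knockdown cells and 48.7 and 46.7 in controls. All NU7441 and knockdown arrays lay above both controls. It was 1.82-fold higher under NU7441 (0.87 ± 0.22, limma adjusted p = 0.0168), and stood 1.90-fold above control after knockdown, where it missed the threshold (0.92 ± 0.22, limma adjusted p = 0.0774). DUSP10, a phosphatase of JNK and p38, had 129 and 89.7 in NU7441 cells, 69.0 and 79.4 in knockdown cells and 53.3 and 66.0 in controls. Both NU7441 arrays were above the rest (0.86 ± 0.25, limma adjusted p = 0.0285). The call of DUSP10 was lost when the NU7441 and control arrays were fitted alone. DUSP16, also a phosphatase of JNK and p38, had 236 and 173 in NU7441 cells, 153 and 176 in knockdown cells and 135 and 146 in controls. It missed the threshold (0.53 ± 0.20, limma adjusted p = 0.0666).

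DUSP6, the cytoplasmic phosphatase of ERK and a common readout of ERK activity, had 19.8 and 16 in NU7441 cells, 21.1 and 18.3 in knockdown cells and 26.3 and 26.0 in controls. The control arrays were above the other 4, but all values lay near the floor, and 1 NU7441 array was at it. The fall of 0.55 ± 0.17 (limma adjusted p = 0.0348) was lost after quantile normalization (−0.22, limma adjusted p = 0.446). DUSP7, the related ERK phosphatase, had 94.3 and 179.6 in NU7441 cells, 187 and 178 in knockdown cells and 179.9 and 192 in controls, so its value of −0.52 ± 0.27 rested on 1 NU7441 array. DUSP2, DUSP4, DUSP5, DUSP8 and DUSP9 lay between −0.30 and 0.15 and did not pass. DUSP4, an inducible nuclear phosphatase, had 30.4 and 37.0 in NU7441 cells, 38.6 and 57.7 in knockdown cells and 42.6 and 30.2 in controls.

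The 14 other DUSPs, the atypical phosphatases that lack the kinase interaction motif, held 8 of the 16 calls. Of the 14, 4 were higher and 4 lower, where 10.8% and 22.4% of all genes were, and their median log2 fold change was −0.12. DUSP22, a phosphatase that acts on the JNK pathway, had 242 and 169 in NU7441 cells, 91.7 and 102 in knockdown cells and 83.8 and 87.8 in controls. The NU7441 arrays stood far above the others, and the knockdown arrays just above the controls (2.36-fold under NU7441, 1.24 ± 0.22, limma adjusted p = 0.0042). DUSP23, which encodes a small phosphatase of a single catalytic domain, had 559 and 449 in NU7441 cells, 411 and 409 in knockdown cells and 258 and 299.9 in controls. The groups did not overlap (1.80-fold under NU7441, 0.85 ± 0.15, limma adjusted p = 0.00378). DUSP3, a phosphatase of ERK and JNK also called VHR, had 126 and 137 in NU7441 cells, 101 and 94.5 in knockdown cells and 61.2 and 74.1 in controls. It too was ordered without overlap (1.96-fold, 0.97 ± 0.21, limma adjusted p = 0.00865). DUSP28 had 108 and 105 in NU7441 cells, 72.8 and 56.1 in knockdown cells and 48.4 and 61.4 in controls (0.97 ± 0.24, limma adjusted p = 0.0151).

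DUSP12, which encodes a phosphatase with a zinc-binding domain, had the lowest log2 fold change as deposited, close to that of IER3IP1, which was lower after quantile normalization (−1.51 against −1.44 for DUSP12). DUSP12 had 40.8 and 53.2 in NU7441 cells, 92.8 and 99.5 in knockdown cells and 146 and 133 in controls. The groups did not overlap, and it was 2.99-fold lower under NU7441 (−1.58 ± 0.22, limma adjusted p = 0.00166). DUSP15 had 37.9 and 48.9 in NU7441 cells, 62.8 and 57.7 in knockdown cells and 81.5 and 84.1 in controls (−0.94 ± 0.24, limma adjusted p = 0.0158). It lost its call after median centring (−0.62, limma adjusted p = 0.0624). DUSP26 had 17.1 and 32.8 in NU7441 cells, 35.5 and 26.5 in knockdown cells and 56.8 and 50.9 in controls (−1.18 ± 0.32, limma adjusted p = 0.0224). Its NU7441 replicate 1 lay near the floor. The call of DUSP26 was lost with 15 subtracted before log2 and with the compared groups alone. DUSP19 was lower by 0.66 ± 0.20 (limma adjusted p = 0.0312) and near the floor, with 16 and 19.7 in NU7441 cells, 21.1 and 22.3 in knockdown cells and 24.3 and 32.4 in controls. Its call was lost after quantile normalization (−0.34, limma adjusted p = 0.225). The remaining 6 did not pass. DUSP11, which acts on the 5′ ends of RNA rather than on kinases, had 16 and 65.8 in NU7441 cells, 60.4 and 56.1 in knockdown cells and 88.8 and 59.5 in controls. One array at the floor set its value of −1.16 ± 0.54. DUSP18 and DUSP14 had 0.71 ± 0.28 and 0.33 ± 0.20, with both NU7441 arrays above both controls. DUSP18 passed after quantile normalization and both passed after median centring.

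No Sprouty gene passed. SPRY2, an ERK-induced inhibitor of receptor signalling, had 37.6 and 39.8 in NU7441 cells, 21.8 and 28.4 in knockdown cells and 26.5 and 30.5 in controls. Its NU7441 arrays were above the other 4 (0.44 ± 0.23, limma adjusted p = 0.158), and it passed after quantile normalization and after median centring. SPRY4 had 26.4 and 35.9 in NU7441 cells, 62.1 and 26.6 in knockdown cells and 55.1 and 43.4 in controls. SPRY3 had 23.9 and 18.2 in NU7441 cells, 19.1 and 22.8 in knockdown cells and 28.8 and 31.6 in controls, a difference of −0.53 ± 0.20 for each treatment. IER3IP1 matched the name pattern but encodes an endoplasmic reticulum protein, not an early response factor. It had 130.04 and 306 in NU7441 cells, 479.7 and 298 in knockdown cells and 537 and 644 in controls. All NU7441 and knockdown arrays lay below both controls (2.95-fold lower under NU7441, −1.56 ± 0.35, limma adjusted p = 0.0109).

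**Figure D3:**
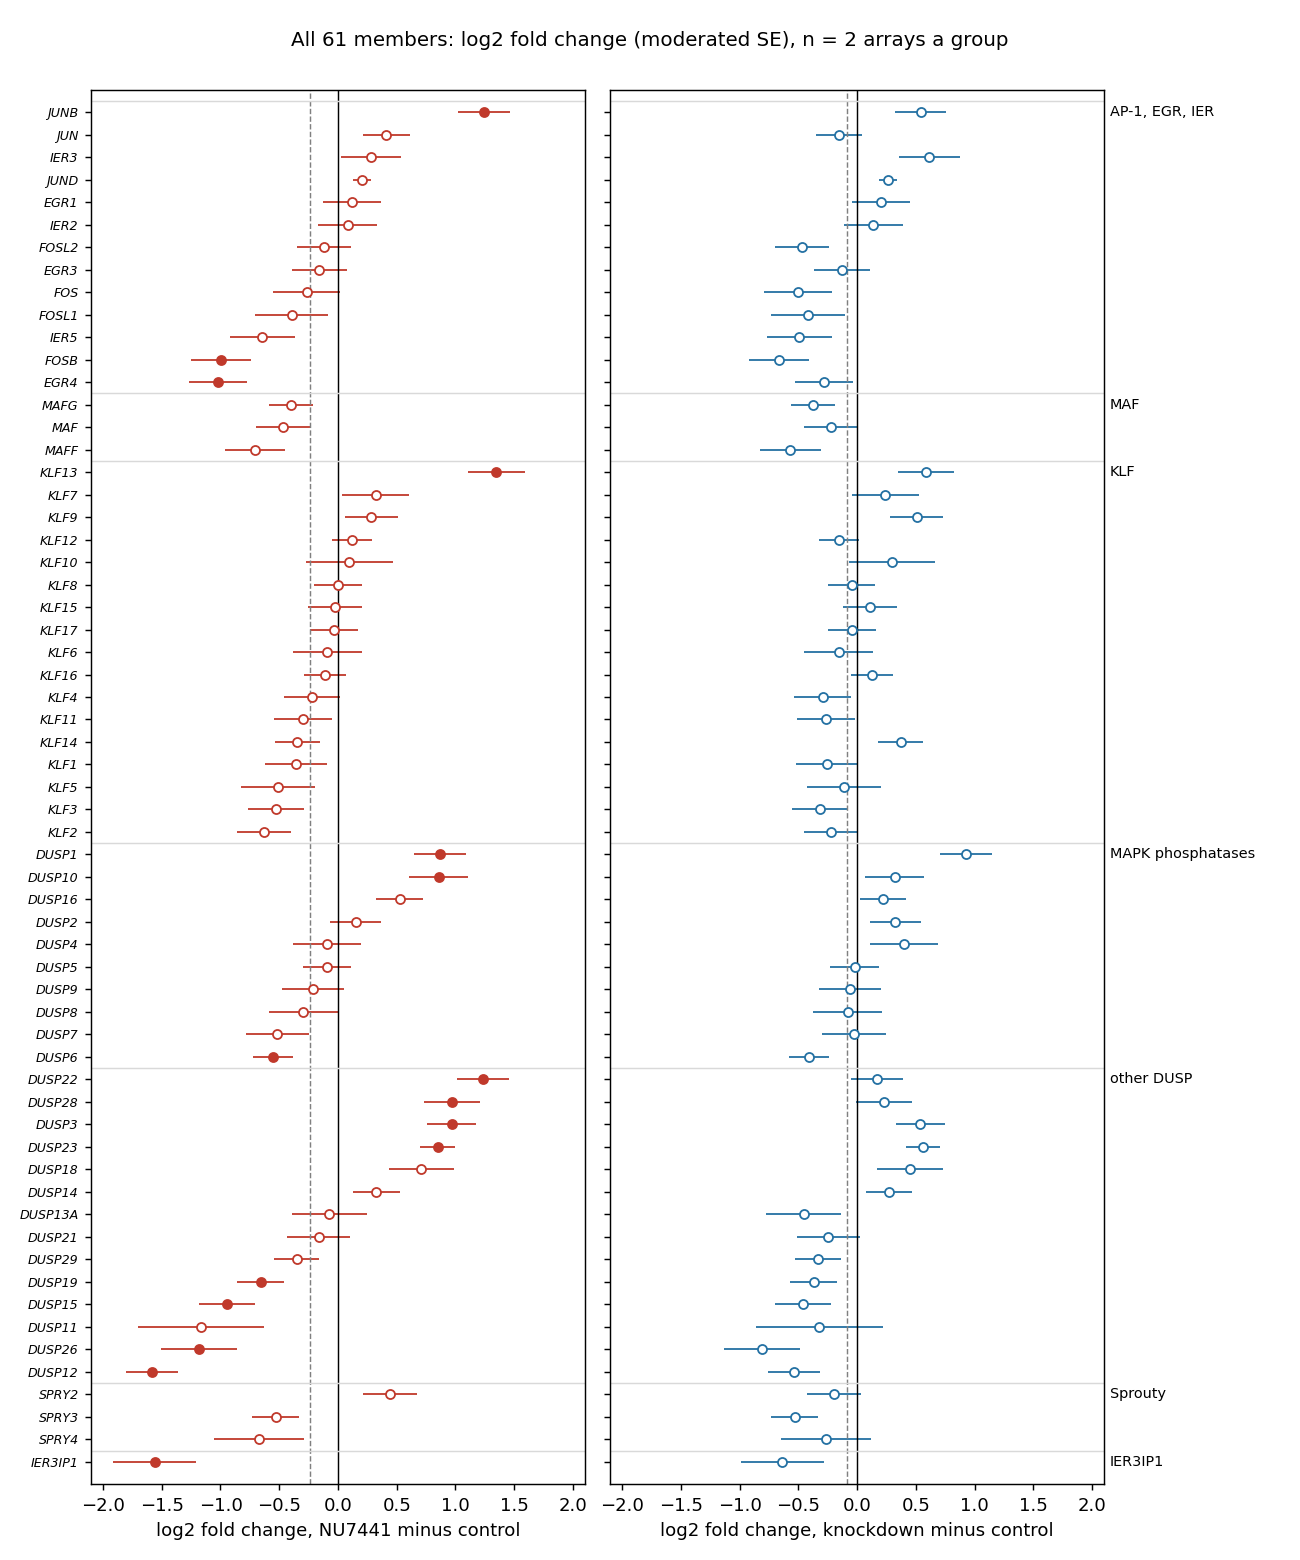
Log2 fold change of each of the 61 members, NU7441 minus control on the left and knockdown minus control on the right, grouped by role from top to bottom. Bars are moderated standard errors (n = 2 arrays a group), filled points passed the threshold and the dashed line is the median of all genes tested. Filled points are 16 on the left, 8 on each side of 0, and 0 on the right.

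Genes of the signalling cascades named above, and of related factors, were counted from lists. Kinase activity was not measured, and whether these cascades drive the members was not tested. Of 12 measured genes of the RAS-ERK cascade 4 rose under NU7441 and 0 fell, where 10.8% of all genes rose and 22.4% fell. These were ERBB3, a receptor of the EGFR family (0.89 ± 0.18, limma adjusted p = 0.00669), ARAF (0.81 ± 0.23), MAP2K1, which encodes the kinase MEK1 (0.61 ± 0.17), and MAPK3, which encodes ERK1. MAPK3 had 229.6 and 197 in NU7441 cells, 137 and 130.4 in knockdown cells and 115 and 107 in controls. The groups did not overlap (0.94 ± 0.18, limma adjusted p = 0.00557). The list's median log2 fold change was 0.44, against −0.23 for all genes. The lowest members were SOS1 (−0.60 ± 0.29) and MAP2K2 (−0.15), neither past the threshold. The count was 7 higher after median centring, 2 with the compared groups alone and 0 without either control array. Without NU7441 replicate 2 it was 8 higher and 1 lower, SOS1.

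Of 11 JNK and p38 cascade genes 1 fell, MAP2K6, a kinase of p38. It had 35.1 and 30.9 in NU7441 cells, 60.7 and 53.3 in knockdown cells and 73.3 and 79.7 in controls. The groups did not overlap (−1.21 ± 0.23, limma adjusted p = 0.0058). No gene of the list passed without either control array, and without NU7441 replicate 2 there were 1 higher and 4 lower. MAPK11 and MAP3K4 were the highest of the list, at 0.54 and 0.35, and MAPK9 the next lowest, at −0.64. MAPK11 passed after quantile normalization and both it and MAP3K4 after median centring. Of 11 genes read as ERK output, MYC rose (1.12 ± 0.14) and SPHK1, a sphingosine kinase, fell (−0.93 ± 0.26). CCND1 and ETS2 did not pass, at 0.53 and −0.73. SPHK1 lost its call after quantile normalization and after median centring. Of 8 SRF and CREB factors and other early genes, MCL1, a survival protein of the BCL2 family, rose (0.69 ± 0.14, limma adjusted p = 0.008). RHOB, which encodes an early-response small GTPase, fell, with 88.4 and 96.3 in NU7441 cells, 131 and 118 in knockdown cells and 173 and 177 in controls (−0.92 ± 0.18, limma adjusted p = 0.00648). SRF and CCN2 did not pass, at 0.28 ± 0.20 and −0.30. Of the CCR4-NOT and TOB list only CNOT9 and CNOT11 were measured. CNOT9 fell, with 41.1 and 121 in NU7441 cells, 181 and 175 in knockdown cells and 305 and 302 in controls (−2.11 ± 0.39, limma adjusted p = 0.00526). MCL1, RHOB, NFE2L1, NFE2L2 and SPHK1 lost their calls without either control array and CNOT9 without control replicate 2, while MYC kept its own.

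Knockdown against control asked how the family responds to loss of the protein. With all 6 arrays in the model 0 of the 61 members passed limma's test, where 0.77% of all genes did, 0.284% higher and 0.486% lower. At an unadjusted p under 0.05 there were 13 members, or 21.3%, against 19.6% of all genes. DUSP1 (0.92 ± 0.22) and DUSP26 (−0.81 ± 0.32) lay farthest from 0. DUSP23 lay at 0.56 ± 0.15 (limma adjusted p = 0.0924). Both knockdown arrays lay above both controls for 27.9% of the members against 23.4% of all genes, and below both for 41.0% against 38.2%. The median over the members was −0.13, against −0.09 for all genes.

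This count depended on which arrays gave the spread. The NU7441 arrays, which vary most, share the error estimate in the model of all 6. When the 4 knockdown and control arrays were fitted alone, 13 members passed, as did 2843 of all genes (19.2%). The 7 higher were DUSP1, DUSP3, DUSP23, JUNB, JUND, KLF9 and IER3, the last on the probeset whose direction is open to the choice described above. The 6 lower were DUSP12, DUSP26, FOSB, IER3IP1, MAFF and SPRY3. In that fit DUSP1 had a limma adjusted p of 0.00203 with an SE of 0.17, DUSP23 0.00296, and JUNB 0.0194. The members' share of 21.3% again lay near that of all genes. For NU7441 against control, fitting its 4 arrays alone left 13 members, without DUSP10, DUSP19 and DUSP26, and 3880 of all genes (26.2%).

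Knockdown against NU7441 tested directly whether the treatments differed, and 3 members passed, 4.92% against 8.67% of all genes. The inhibitor was given for 24 h and transfection lasted 96 h. Duration and transfection thus cannot be told apart from a difference between inhibition and depletion. Of these 2 were higher and 1 lower after knockdown, where 5.83% and 2.84% of all genes were. Both knockdown arrays lay above both NU7441 arrays for 19.7% of the members against 32.9% of all genes, and below both for 18.0% against 19.6%. DUSP12 was 2.06-fold higher after knockdown than under NU7441 (1.04 ± 0.22, limma adjusted p = 0.0243). DUSP22 was 2.09-fold lower (−1.07 ± 0.22, limma adjusted p = 0.0215), and after knockdown it was 0.17 ± 0.22 against control. KLF14, a single-exon KLF gene, had 31.5 and 28.1 in knockdown cells, 16 and 20.4 in NU7441 cells and 24.3 and 21.7 in controls. It was 1.65-fold higher after knockdown than under NU7441 (0.72 ± 0.19, limma adjusted p = 0.0488), with 1 NU7441 array at the floor. JUNB (−0.70 ± 0.22) and KLF13 (−0.77 ± 0.24) lay lower after knockdown than under NU7441 on both arrays and missed the threshold (limma adjusted p = 0.0778 and 0.0776). DUSP1 showed a difference of 0.06 ± 0.22 between the treatments (limma adjusted p = 0.893), with overlapping arrays. The comparisons of NU7441 and knockdown with control share their control arrays.

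The calls under NU7441 were of unequal stability. DUSP12 and DUSP23 passed in all 15 alternative settings, and all 16 called members kept their direction in each alternative that measured them. Leaving out control replicate 1 left 3 calls, DUSP12, DUSP23 and JUNB, and leaving out control replicate 2 left 2, DUSP12 and DUSP23. Besides these 2 alternatives, the calls of 9 members, DUSP1, DUSP3, DUSP12, DUSP22, DUSP23, DUSP28, IER3IP1, JUNB and KLF13, were kept throughout. The other 7, among which 6 were lower, lost theirs at least once.

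**Figure D4:**
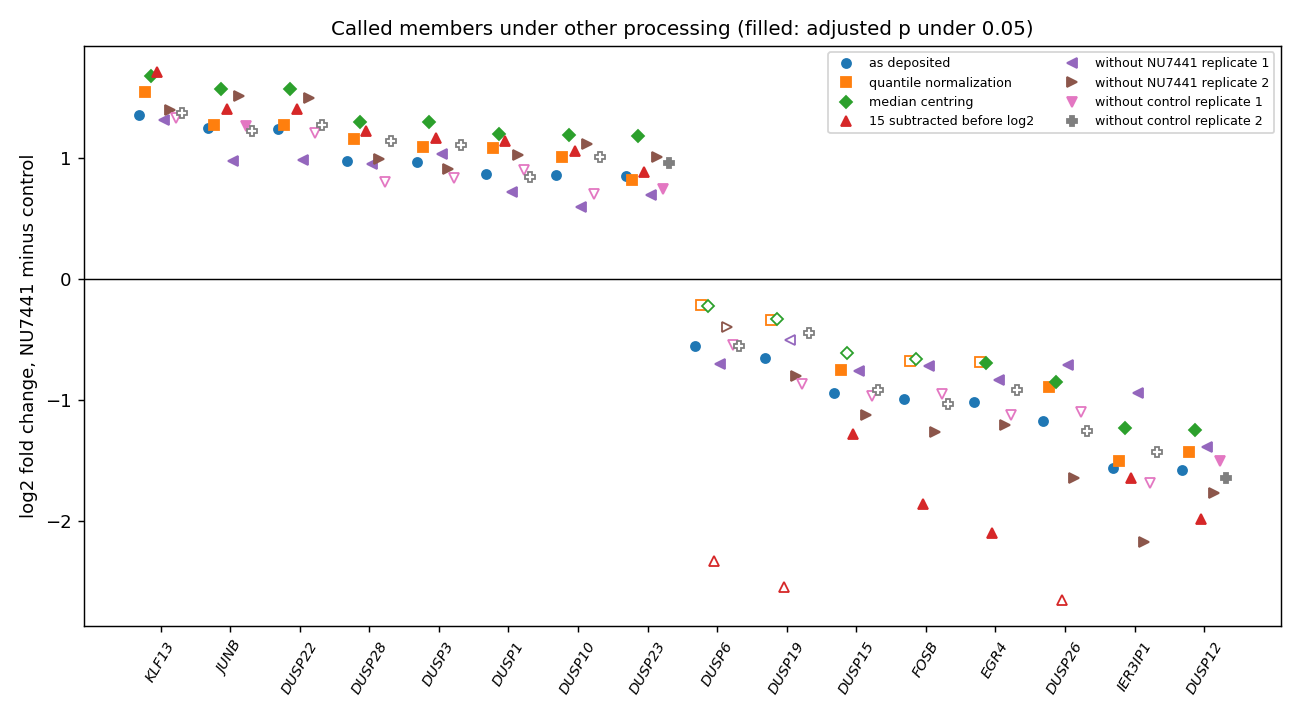
Log2 fold change, NU7441 minus control, of the 16 members past the threshold, as deposited and under 7 alternatives, with filled symbols for an adjusted p under 0.05. No symbol crosses 0, the open symbols of the 8 higher members come from fits without a control array, and those of the lower members also from other scalings.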

How the data were processed

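RNA of 6 C4-2 samples was amplified as cDNA and labelled with biotin, per the labels' protocols. The platform of the probe table is the Affymetrix Human Gene 2.0 ST array. The authors deposited 1 linear intensity per probeset and array for 44629 probesets. How they summarised and normalized the probes is not given in the sources used here, nor is a build, and 0 columns belonged to no sample. Of the probesets 15835 had 1 gene symbol in the platform table, 0 had several and 28794 were unnamed here. All 15835 gene identifiers matched the GRCh38.p14 gene table and 0 symbols changed. Log2 intensities of the brightest probeset of each of 14812 genes were fitted with limma 3.58.1 in R 4.3.3, in 1 model of all 6 arrays with 3 residual degrees of freedom and a mean-variance trend. Tests were two-sided, with Benjamini-Hochberg adjustment over all genes and a threshold of 0.05. No filter on dim genes was applied, and 25 of the 61 members were dimmer than the median gene of 38.2. The number of arrays limits the precision. The median SE was 0.223 for NU7441 minus control. The procedure was tested on simulated data in which few genes changed and all groups had the same spread. That test does not cover the unequal spread between the groups here.

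Members and lists were chosen with earlier results of these data known. Intensities on each array are given for members past the threshold and for the brightest and dimmest of each role. Context genes are the 2 highest and 2 lowest of each list. Other members and context genes given with values were chosen after their values were seen. RefSeq promoters (GRCh38.p14) were matched by gene identifier for 50 members.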

Additional observations from a re-analysis of the deposited data

Results flagged for a closer look

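For 3 members the effects of the 2 treatments differed past the threshold in the direct test of knockdown against NU7441 (limma adjusted p over all genes). That contrast also holds the difference in duration, and any in transfection, given above. The difference, knockdown minus NU7441 on the log2 scale, was 1.04 for DUSP12 (adjusted p = 0.0243), −1.07 for DUSP22 (adjusted p = 0.0215) and 0.72 for KLF14 (adjusted p = 0.0488). DUSP12 and DUSP22 lost the call when the knockdown and NU7441 arrays were fitted alone and without any 1 knockdown or control array (adjusted p up to 0.174 for DUSP12 and 0.194 for DUSP22 over all settings tried). KLF14 kept it in 3 of the 14 alternative settings that measured it, and its intensities lay between 16 and 31.5.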

How the results depend on the processing

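For NU7441 against control the number of members past the threshold was 16, ranged from 13 to 18 over the alternatives that kept all arrays, and from 2 to 29 when 1 array was left out, with 29 without NU7441 replicate 2. For knockdown against control it was 0, but 13 with the compared groups alone and from 0 to 14 with 1 array left out, the 14 without either NU7441 array. For knockdown against NU7441 it was 3, but 7 after median centring, 0 with the compared groups alone and from 0 to 20 with 1 array left out. A fit without 1 array assumes that the lone array of its group varies like the other groups. With the replicate block the counts were 16, 0 and 2, and the block lost the call of KLF14 and no other. Whether equal replicate numbers mark matched samples is not stated in the labels. Differences between replicates 1 and 2 correlated between groups, across genes, at −0.07 to −0.01, which cannot settle how the samples were matched. With the block 37 genes in all passed in knockdown against control, against 114 without it. With the other probeset, chosen after seeing the data, IER3 turned to −1.12 for NU7441 minus control, FOSB lost its call and IER3 gained one, and the counts stayed at 16, 0 and 3. For all genes, knockdown against control gave 244 calls after quantile normalization, 7 with 15 subtracted and 4 without a mean-variance trend. Knockdown against NU7441 gave 1284, but 820 without the trend and 472 with the compared groups alone. With 1 array left out, all-gene counts ran from 868 to 7845 for NU7441 against control (4917 with all arrays), from 1 to 2884 for knockdown against control and from 0 to 5101 for knockdown against NU7441. With dim genes left out, 36 members were tested. Members near the floor, among them DUSP6, DUSP19 and KLF14, have the least certain fold changes, and the cause of the lost calls was not tested.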
